A study of Mus musculus with 12 samples.

Results

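Nr4a1 and Nr4a3 encode orphan nuclear receptors, and the accessible chromatin in and around these 2 genes was described here from ATAC-seq peak lists of activated neurons of the infralimbic prefrontal cortex. ATAC-seq marks open DNA by the insertion of adapters by a transposase. The members are all peaks that overlap, by at least 1 bp, the RefSeq span of either gene or the 50 kb on each side of it. They number 15, 14 and 21 peaks at Nr4a1 and 9, 7 and 9 peaks at Nr4a3, out of 97961, 80735 and 123375 peaks in the lists of RC replicate 3 (RC3 below), EXT replicate 1 (EXT1) and EXT replicate 2 (EXT2). All animals were male C57BL/6 mice aged 10 to 12 weeks that had received 3 tone and foot-shock pairings of 0.7 mA. A day later the extinction (EXT) mice were given 60 tones in another context, whereas the retention control (RC) mice stayed there equally long with 0 tones, and tissue was taken straight afterwards. Each library came from a pool of 5 mice and used 50000 cells sorted for NeuN, a neuronal protein, and for Arc, the product of an activity-induced gene, so neurons without Arc were not sampled in either group. Of the 12 samples of the series, 6 are ATAC-seq samples, and peak lists were held for 3 RC and 2 EXT libraries. The lists of RC replicates 1 and 2, as held here, end within chromosome 1, so that only 3 lists reach the 2 genes. With 1 RC library against 2 EXT libraries no test between the groups was made, and values are given per library.

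The Nr4a family comprises Nr4a1 (also called Nur77), Nr4a2 (Nurr1) and Nr4a3 (Nor1). They are transcription factors whose activity depends mainly on how much of the protein is made rather than on a bound hormone, and they are immediate early genes, transcribed within minutes of neuronal activity through cAMP and calcium signalling to factors such as CREB. The proteins bind DNA at the NBRE, an extended nuclear receptor site, and Nr4a1 and Nr4a2 can also pair with retinoid X receptors. In the brain the family is known for its part in the storage of long-term memory.

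The peaks at the main annotated start of each gene covered the DNA just upstream of it, where the bases below lie. They are the RefSeq sequences (GRCm38.p6, the same build as mm10) from 250 bases before to 50 bases after that start, 5′ to 3′ on the plus strand, at chr15:101266596-101266895 for Nr4a1 and chr4:48045055-48045354 for Nr4a3. Capitals mark TGACG, the core of the cAMP response element (CRE) to which CREB binds, on either strand (CGTCA on the printed strand is TGACG on the other). They are shown because both promoters held 4 such matches.
Nr4a1: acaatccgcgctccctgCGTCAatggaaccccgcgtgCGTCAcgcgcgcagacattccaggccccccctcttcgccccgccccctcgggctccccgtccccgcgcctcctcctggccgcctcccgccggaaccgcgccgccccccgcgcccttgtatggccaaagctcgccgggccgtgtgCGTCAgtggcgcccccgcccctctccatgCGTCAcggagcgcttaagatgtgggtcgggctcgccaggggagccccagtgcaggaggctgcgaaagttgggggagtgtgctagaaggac
Nr4a3: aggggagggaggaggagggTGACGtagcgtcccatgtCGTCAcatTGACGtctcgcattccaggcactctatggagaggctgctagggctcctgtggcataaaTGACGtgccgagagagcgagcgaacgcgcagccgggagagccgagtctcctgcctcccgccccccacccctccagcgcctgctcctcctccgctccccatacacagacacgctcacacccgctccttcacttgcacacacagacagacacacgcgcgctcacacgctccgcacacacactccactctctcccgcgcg

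At least 1 TGACG on either strand was present in 20.8% of the 32851 RefSeq promoter sequences of this length, and 4 or more were present in 0.231% of them, or 76 sequences. The Nr4a2 promoter also held 4. In Nr4a1 all 4 matches were on the minus strand, beginning 233, 213, 69 and 40 bases before the start, and in Nr4a3 they began 231, 213, 205 and 147 bases before it, with 3 on the plus strand. No match overlapped another. Neither promoter contained an exact full palindrome TGACGTCA (in 1.79% of all promoters) or CArG box, bound by serum response factor (1.63%). Exact matches to the AP-1 site TGANTCA (7.81%) and the NBRE core AAAGGTCA (1.51%) were also absent from both. Each was searched on both strands, and variants of these sites were not searched. GGGCGG, a site for Sp1-type factors, occurred 3 times in Nr4a1 and 1 time in Nr4a3, and in 35.7% of all promoters. G and C made up 72.3% of the Nr4a1 sequence and 64.7% of the Nr4a3 sequence, against a median of 52.7% over all promoters. A match describes the letters and does not show that a factor binds there.

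Both genes were accessible at their main start in all 3 libraries. A peak within 1 kb of an annotated start was present in all 3 lists for 51.1% of the 17492 protein-coding genes with a known strand, and in the single lists for 56.8% (RC3), 54.9% (EXT1) and 61.4% (EXT2), so presence alone does not set the 2 genes apart. In sorted bulk samples, a larger share of cells open at a site and a more open site per cell cannot be told apart. The values that follow are the authors' fold enrichment, which divides the pileup (tags stacked at a peak's summit after extension) by the local background of the same library, and the percentile of a peak among all peaks of its own list, where 100 is the highest. Folds and percentiles belong to their own list, and their order between lists shows no change.

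At the main Nr4a1 start (chromosome 15, position 101266846, within the gene span of 101253902 to 101274795) the peak ran from 101266663 to 101267031 in RC3, a width of 369 bp, with a fold of 4.08. In EXT1 it ran from 101266197 to 101267016, a width of 820 bp, with a fold of 4.11. In EXT2 it ran from 101266110 to 101267014, a width of 905 bp, with a fold of 7.13. The downstream edges thus lay close together, 185, 170 and 168 bases after the start, while the upstream edge lay farther out in both EXT lists, 649 and 736 bases before the start, than in RC3, 183 bases before it. The folds ranked 44510 of 97961, 33541 of 80735 and 23720 of 123375, at the 54.6th, 58.5th and 80.8th percentile. The summits lay 51, 92 and 94 bases before the start, 11, 23 and 25 bases from the nearest TGACG. The peak of RC3 covered 233 of the 300 printed bases and 2 of the 4 TGACG matches, and the EXT peaks covered all 300 bases and all 4 matches.

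At the main Nr4a3 start (chromosome 4, position 48045305, gene span 48045078 to 48086447) the peak ran from 48044874 to 48045544 in RC3, from 48044722 to 48045367 in EXT1 and from 48044950 to 48045442 in EXT2. Its widths were 671, 646 and 493 bp and its folds 4.79, 4.93 and 4.98. It ranked 33132 of 97961, 23387 of 80735 and 50223 of 123375, at the 66.2nd, 71.0th and 59.3rd percentile. Here RC3 stood between EXT1 and EXT2 in percentile, and the widest peak was that of RC3. All 3 summits fell within 18 bp of each other, 230, 224 and 212 bases before the start, and within 0, 3 and 0 bases of a TGACG. That is also where the gene span begins, 227 bases before the main start. Each peak covered all 300 printed bases and all 4 matches.

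**Figure D1:**
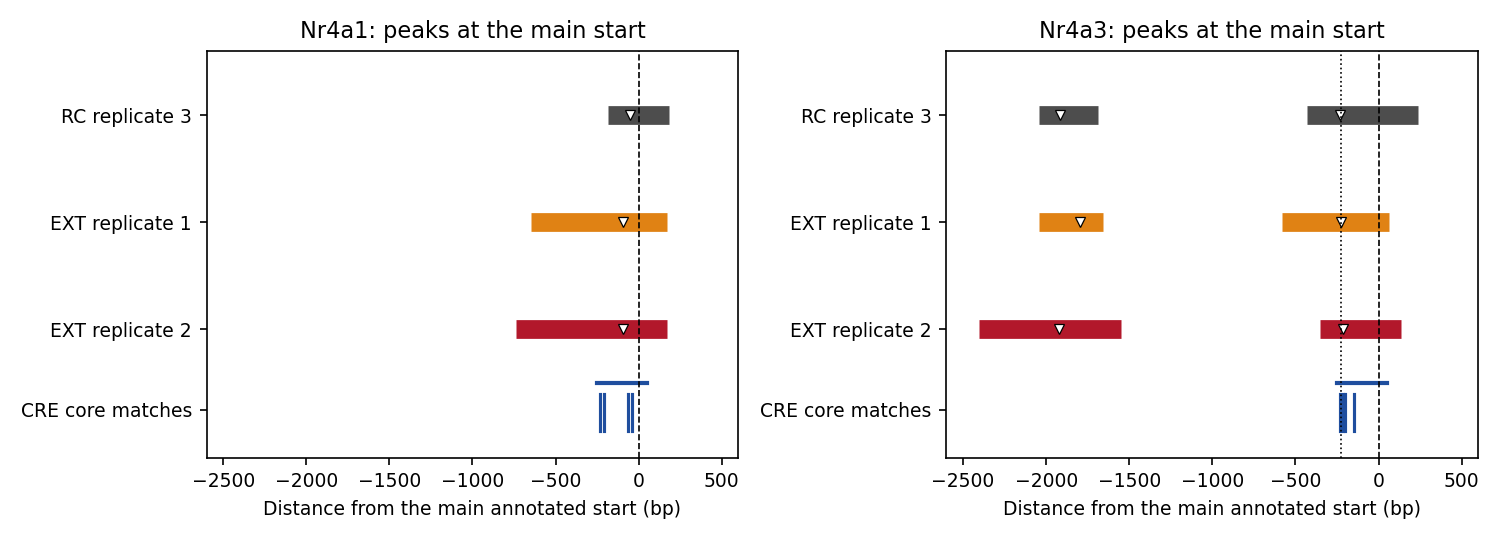
Peaks within 2600 bp upstream and 600 bp downstream of the main annotated start (dashed line) of Nr4a1 and Nr4a3 in the 3 lists; bars span each peak, white triangles mark summits, the blue line marks the printed promoter with its 4 TGACG matches as ticks below, and the dotted line marks the lower end of the Nr4a3 span. The downstream edges of the Nr4a1 peaks lie within 168 to 185 bases after the start, the Nr4a3 summits lie at the upstream cluster of matches, and a separate Nr4a3 peak lies about 2 kb upstream in all 3 lists.

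The annotation places a second start of Nr4a1 at the lower end of its span, 12.9 kb upstream of the main start, and the lists differed there. EXT2 had a peak of 331 bp across that position, from 101253899 to 101254229, with a fold of 3.88 (39.5th percentile). RC3 had a separate peak of 324 bp from 101254609 to 101254932, with a fold of 2.66 (13.1st percentile), within 1 kb downstream of that start but not overlapping the EXT peak. EXT1 had none within 1 kb. The EXT libraries did not share this feature.

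**Figure D2:**
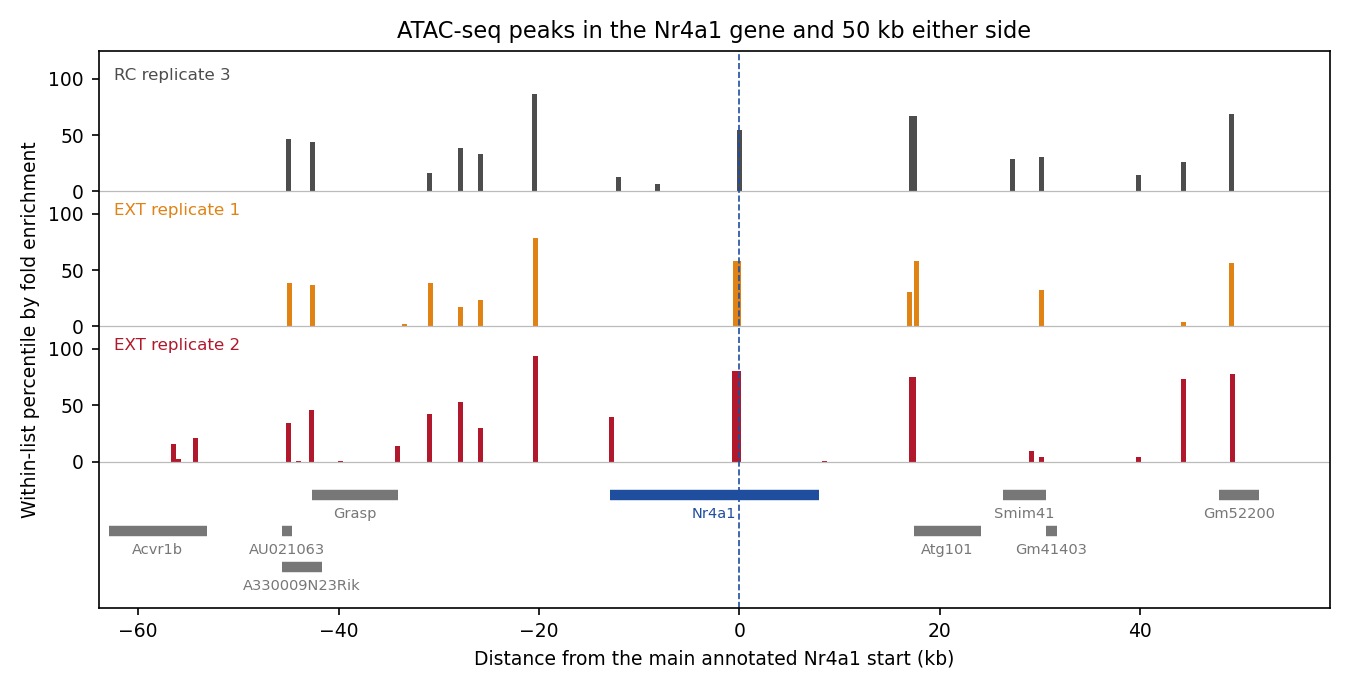
Peaks of the 3 lists across Nr4a1 and 50 kb on each side, by distance from the main start in kb (x axis) and within-list percentile by fold enrichment (bar height, 0 to 100 in each list; bars narrower than 0.5 kb are drawn at 0.5 kb), above the spans of Nr4a1 (blue) and neighbouring genes (grey). The peak near -20 kb is the highest bar in each list, with percentiles of 86.6, 78.2 and 93.4 from top to bottom.

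The peak with the highest fold in the Nr4a1 window was not at the start but 20.3 kb upstream of it, between Grasp, a scaffold protein of glutamate receptors, and Nr4a1. In RC3 it spanned 101246229 to 101246637 (fold 6.99, 86.6th percentile), in EXT1 101246227 to 101246716 (fold 5.60, 78.2nd percentile) and in EXT2 101246229 to 101246774 (fold 10.5, 93.4th percentile). The upstream edges differed by at most 2 bp between the lists. By pileup this peak and the main start peak stood close together. The upstream peak had 111, 83 and 235 tags in RC3, EXT1 and EXT2, and the start peak 107, 89 and 234. A run of 3 weaker regions lay farther upstream, centred 30.9, 27.9 and 25.8 kb before the start, each held by all 3 lists with percentiles from 16.8 to 53.3. Next to these, a region 42.6 kb upstream lay at the start of Grasp and 1 at 45.0 kb at the lncRNA genes A330009N23Rik and AU021063, both in all 3 lists. The Grasp region stood at the 43.9th percentile in RC3, the 36.7th in EXT1 and the 45.5th in EXT2, and the lncRNA region at 46.5, 38.8 and 34.2.

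Within the Nr4a1 span, other than at the 2 starts held here, a single peak was called. It was 212 bp wide, from 101258582 to 101258793, in RC3 alone, with a fold of 2.45 (6.23rd percentile). RC3 alone also held a peak of 199 bp from 101294034 to 101294232, 27.3 kb downstream of the start and inside Smim41, a small membrane protein gene, with a fold of 3.07 (29.0th percentile). Downstream of Nr4a1, the first region in all 3 lists was centred 17.3 kb after the start, at the start of Atg101, an autophagy initiation gene. It was 1 peak in RC3, at the 66.9th percentile, and in EXT2, at the 75.1st. EXT1 had a pair of separate peaks there, from 101283683 to 101284088 at the 31.0th percentile and from 101284441 to 101284600 at the 58.5th. The region at 49.2 kb, inside the lncRNA gene Gm52200, stood at the 68.6th, 56.3rd and 77.4th percentile. Weaker regions in all 3 lists lay at 30.2 kb (30.5th, 32.3rd and 3.88th percentile) and 39.8 kb (14.2nd, 0.542nd and 3.73rd). The region at 44.4 kb separated the EXT libraries, with folds of 3.02 in RC3, 2.44 in EXT1 and 6.15 in EXT2 (26.2nd, 4.33rd and 73.3rd percentile).

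Nr4a3 stood in a sparser stretch, whose only neighbour within 50 kb is Stx17, a syntaxin that acts in the fusion of autophagosomes with lysosomes. A region 2.0 kb upstream of the Nr4a3 start was separate from the start peak in every list. It ran from 48043261 to 48043615 in RC3, from 48043261 to 48043646 in EXT1 and from 48042899 to 48043755 in EXT2, with folds of 3.84, 3.53 and 7.48. In EXT2 this peak, at the 82.7th percentile, outranked the start peak at the 59.3rd, whereas in the other lists it stood below it, at the 49.6th and 44.2nd percentile. Which of these regions ranked higher therefore differed between the EXT libraries.

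Inside Nr4a3, other than at the 2 starts held here, 1 region was held by all 3 lists. It was centred 5.3 kb after the start, with folds of 3.03, 2.43 and 3.57 in RC3, EXT1 and EXT2 (26.5th, 3.97th and 33.1st percentile). The other intragenic peaks, of 238 and 243 bp at 28.3 and 31.9 kb, were called in RC3 alone, with folds of 2.36 and 2.73 (4.37th and 15.1st percentile). Past the end of the gene, a region 48.1 kb from the start had folds of 4.62, 5.15 and 7.40 (63.4th, 73.7th and 82.1st percentile). The peak at the start of Stx17 had the highest fold of the window in RC3 (5.49) and EXT2 (9.95), and tied with the 48.1 kb region in EXT1 (5.15). By pileup the Stx17 peak stood below the Nr4a3 start peak in every list, at 37, 31 and 55 tags against 79, 73 and 109. Upstream, regions centred 41.7 and 25.9 kb before the start were also in all 3 lists, the first at the 27.3rd, 41.6th and 79.3rd percentile.

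**Figure D3:**
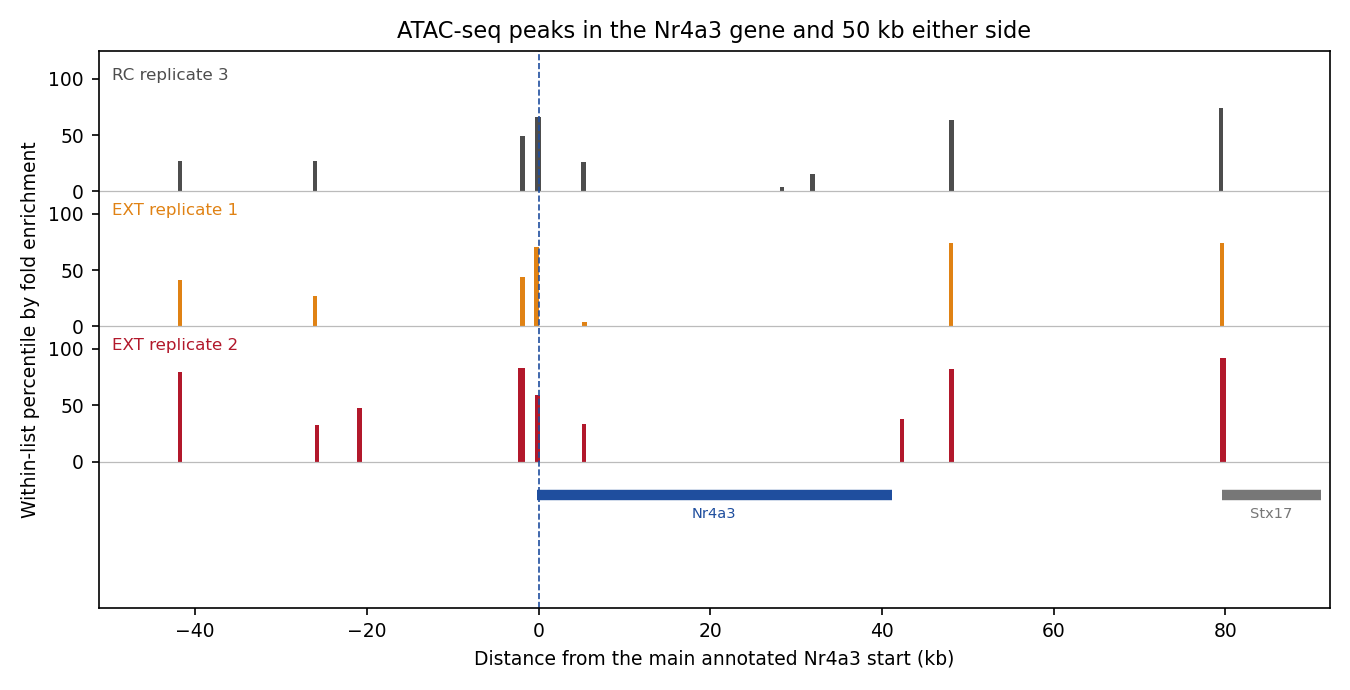
Peaks of the 3 lists across Nr4a3 and 50 kb on each side, drawn as for Nr4a1 (x axis, distance from the main start in kb; bar height, within-list percentile by fold enrichment). The start peak and the peak 2.0 kb upstream appear in every list, and of the 9, 7 and 9 peaks only 3, 1 and 1 are intragenic.

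Regions, formed by merging overlapping peaks of the 3 lists, were held either by all 3 lists or by a single one. Of 25 regions in the Nr4a1 window 12 (48.0%) were in all 3 lists, and of 11 in the Nr4a3 window 7 (63.6%), where 25.8% of the 168512 regions of the genome were. None of the 36 regions was in exactly 2 lists, against 24.9% over the genome, so none was in both EXT lists and missing from RC3 (4.34% over the genome). With peaks of a −log10 q of at least 5 only, 2 of 18 and 1 of 8 regions were in exactly 2 lists. In exactly 1 list were 17 of the 36 regions (49.3% over the genome). RC3 alone held 3 regions at Nr4a1 and 2 at Nr4a3 (10.7% over the genome), EXT1 alone held 1 and 0 (9.38%), and EXT2 alone held 9 and 2 (29.2%). The EXT1 region lay 33.4 kb upstream of the Nr4a1 start, within 1 kb of the end of Grasp, with a fold of 2.30 (1.96th percentile). Beside the peak at the second Nr4a1 start, the EXT2 regions lay 56.4, 56.0, 54.2, 44.0, 39.8 and 34.1 kb upstream and 8.5 and 29.2 kb downstream, at percentiles from 0.0965 to 21.1. At Nr4a3 the EXT2 regions lay 20.9 kb upstream and 42.3 kb downstream, with folds of 4.27 and 3.78 (47.6th and 37.8th percentile). EXT2 has the longest list and the fewest tags, 57.7 M against 73.8 M in RC3 and 65.0 M in EXT1, and its part in these counts was not tested. When the lists were reduced to equal length, EXT2 kept 13 of its 21 Nr4a1 peaks.

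The Nr4a1 window was denser in peaks than most genes and the Nr4a3 window was close to the median gene. Peaks per 100 kb were 12.4, 11.6 and 17.4 in RC3, EXT1 and EXT2 for Nr4a1, at the 90.3rd, 93.7th and 97.1st percentile of the windows of all protein-coding genes. They were 6.37, 4.95 and 6.37 for Nr4a3, at the 54.5th, 50.5th and 45.3rd percentile. Median densities over all genes were 5.75, 4.90 and 7.08. Peaks covered 4.53%, 3.95% and 6.44% of the 120.9 kb window of Nr4a1, and 2.18%, 1.90% and 2.87% of the 141.4 kb window of Nr4a3. Widths ran from 150 to 905 bp at Nr4a1 and from 150 to 857 bp at Nr4a3.

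The 2 windows differed in the local background against which fold was computed, and the rank of the Nr4a1 start peak differed between fold and pileup. The background implied by pileup and fold at the main Nr4a1 start was 4.30, 4.01 and 6.91 times the genome-wide level in RC3, EXT1 and EXT2, and 2.65, 2.69 and 4.56 times at the Nr4a3 start, where the median peak of each list stood at 1.27, 1.29 and 1.36 times. The pileup at the Nr4a1 start was 107, 89 and 234 tags, the 96.7th, 96.6th and 99.1st percentile of the lists, and that at the Nr4a3 start 79, 73 and 109 tags, the 91.7th, 93.3rd and 94.2nd. By pileup Nr4a1 thus ranked above Nr4a3 in all 3 lists. By fold it ranked below Nr4a3 in RC3 and EXT1 and above it in EXT2. Of the 50 Nr4a1 peaks, 50 ranked higher by pileup than by fold, and of the 25 Nr4a3 peaks 9 did, against 41.2%, 42.1% and 41.9% of all peaks of the lists. These peaks lie in 25 and 11 regions, so a region held by all 3 lists is counted more than once.

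**Figure D4:**
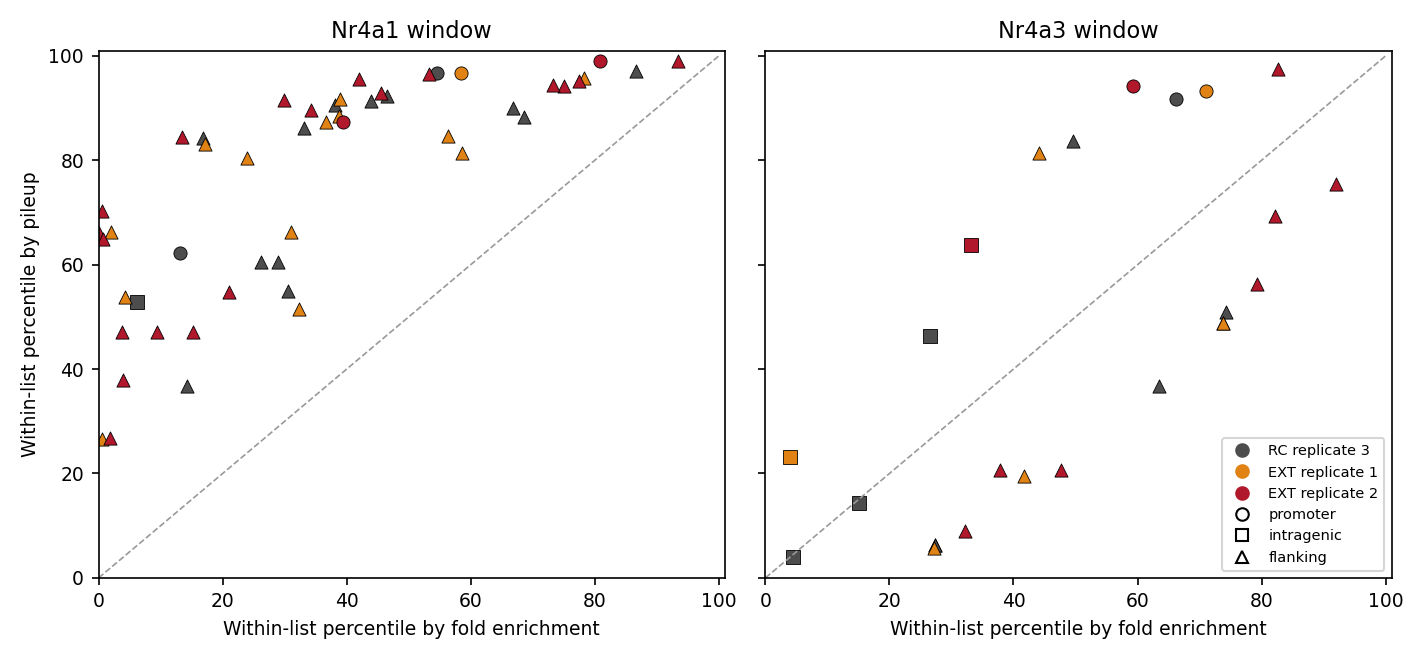
Within-list percentile by fold enrichment (x axis) and by pileup (y axis) of each peak of the Nr4a1 window (left) and the Nr4a3 window (right), by list (colour) and class (shape); the dashed line marks equal percentiles. All 50 Nr4a1 peaks lie above the line, and 9 of the 25 Nr4a3 peaks do.

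Among all start peaks, the fold at the Nr4a1 start was higher than that of 25.4%, 31.0% and 47.6% of protein-coding genes with a start peak in RC3, EXT1 and EXT2, and the fold at Nr4a3 higher than that of 37.7%, 46.8% and 24.0%. By pileup the shares were 79.0%, 83.7% and 91.7% for Nr4a1 and 63.0%, 73.2% and 64.2% for Nr4a3. The genes whose start peaks had the most similar fold percentiles over the 3 lists were Parl, Dph6 and H4c4 for Nr4a1, with largest differences of 1.28, 1.74 and 2.41 points. For Nr4a3 they were Gng13, Taf1b and Zfp658, with largest differences of 3.33, 3.34 and 3.85 points.

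The other genes of the pathway were accessible at their starts to differing degrees. The third family member, Nr4a2, had no start peak in any of the 3 lists. The retinoid X receptor genes Rxra, Rxrb and Rxrg, which encode dimer partners, had a start peak in all 3. Rxra stood at the 66.6th, 85.4th and 19.2nd percentile by fold in RC3, EXT1 and EXT2, Rxrb at 48.8, 69.5 and 65.3, and Rxrg at 30.6, 49.7 and 33.6, so that the lists differed widely for Rxra. By pileup Rxra stood at 62.2, 84.7 and 37.9, Rxrb at 93.8, 97.9 and 97.3, and Rxrg at 8.78, 19.5 and 17.6. Rxrb thus ranked above Rxra in every list by pileup, but only in EXT2 by fold. Among the 18 other orphan nuclear receptor genes matched to the table (of 20), 10, 10 and 11 had a start peak in RC3, EXT1 and EXT2, close to the shares of 56.8%, 54.9% and 61.4% over all protein-coding genes. Esrra, a regulator of mitochondrial genes, and Nr2c2 ranked highest by their mean over the lists, Esrra at 98.2, 94.9 and 97.6 and Nr2c2 at 97.9, 85.5 and 95.4. Nr0b1, Nr0b2, Nr2e1, Nr2e3, Nr2f2, Nr2f6 and Nr5a2 had none in any list. Of 10 matched regulators of Nr4a induction (of 12), 9, 10 and 10 had a start peak, against 56.8%, 54.9% and 61.4% of protein-coding genes. Hdac4, a class IIa histone deacetylase, and Creb1, the gene of CREB itself, ranked highest, Hdac4 at 98.5, 94.3 and 96.6 and Creb1 at 87.6, 87.3 and 94.5.

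Markers of the sorted cells were checked in the same way. Of the 3 neuronal markers in the table, Syt1 had a start peak in every list, at the 82.5th, 84.3rd and 89.6th percentile by fold. The glutamate transporter gene Slc17a7 also had 1 in every list, at 25.7, 24.8 and 5.89 by fold and 88.7, 89.5 and 90.1 by pileup. Rbfox3, which encodes NeuN, had 1 in EXT2 alone, at the 1.05th percentile by fold and the 84.5th by pileup. Of 11 microglia, oligodendrocyte, astrocyte and endothelial markers 2, 1 and 3 had a start peak, against 56.8%, 54.9% and 61.4% of protein-coding genes. The markers that had a peak were mostly endothelial. Cldn5, a tight junction gene, had 1 in every list, at 98.6, 98.4 and 86.0 by fold, above Slc17a7. By pileup Cldn5 stood at 92.9, 93.0 and 66.1, above Slc17a7 in RC3 and EXT1 and below it in EXT2. Kdr, a receptor for vascular endothelial growth factor, had 1 in RC3 and EXT2, at 44.6 and 59.9 by fold. By pileup Kdr stood at 17.1 and 32.6. Flt1, also an endothelial marker, had none in any list. The oligodendrocyte gene Mag had 1 in EXT2 alone, at 40.5 by fold and 14.7 by pileup, and Mog had none in any list. None of the 3 microglia and none of the 3 astrocyte genes had any. The part of other cell types in the values at Nr4a1 and Nr4a3 was not tested.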

How the data were processed

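ATAC-seq libraries of Arc+ NeuN+ cells were analysed as peak lists, each called by the authors on 1 library. Per the file headers, MACS 2.2.4 was used with no control, a shift of -75 bp, an extension of each tag to 150 bp, duplicates retained and a q-value cutoff of 0.05. Per the submitters' processing notes, the build was mm10; which of the aligners they name handled these libraries is not stated. The deposited pileup is a coverage signal in tags at the summit, whole numbers that were read as unscaled. Fold enrichment is the authors' ratio of pileup to local background, and −log10 p and −log10 q are as deposited. Retained duplicates may inflate a peak built from few DNA fragments. Positions and widths are the authors', 1-based. No read counts per region were held, so no counting interval is given, and the precision of a value is seen only in the spread between libraries, which are pools of animals.

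The title, not the file name, set the replicate number of EXT replicate 2. Gene spans and promoter sequences came from RefSeq tables of GRCm38.p6. Annotated starts were those of the promoter table plus the 5′ end of the span, for the 17492 of 21900 protein-coding genes with a strand there. RefSeq lists 7 transcripts for Nr4a1 and 6 for Nr4a3, but only 2 starts were held for each. Whether a peak called intragenic lies at the start of another transcript was therefore not checked. Peaks within 1 kb of a start were called promoter, others in the span intragenic and the rest flanking. Percentiles place ties at their mid rank. The implied background is (pileup + 1)/fold − 1, over the genome-wide level from the headers (tags times 150 bp over the effective genome size); its lowest value in each list, 5.92, 5.21 and 4.63 tags, equalled that level. Regions merge peaks that overlap by at least 1 bp. The steps were tested on simulated data. The named genes were the 2 members, all their regions by class and list, the 2 highest flanking peaks of each list, the 3 protein-coding genes nearest in start-peak percentile, Nr4a2 and the Rxr genes, and of the other gene lists the 2 highest and those with no start peak. The members and lists were chosen with earlier results of these data known. Python 3.11.15, numpy 2.4.6 and pandas 2.3.3 were used.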

Additional observations from a re-analysis of the deposited data

How the results depend on the processing

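Of 66 values recomputed under another setting, 40 were labelled the same and 26 moved. Counts were held to a factor of 1.5, and EXT percentiles to the standard deviation between the 2 EXT lists. RC3 percentiles were held to a binomial interval over all peaks of that list. That interval is narrow and measures no spread between libraries, so for RC3 the label moved marks almost any change. Ranking by pileup in place of fold placed the Nr4a1 start peak at the 96.7th, 96.6th and 99.1st percentile and the Nr4a3 start peak at the 91.7th, 93.3rd and 94.2nd in RC3, EXT1 and EXT2. Ranking by −log10 p gave 86.5, 86.0 and 98.0 for Nr4a1 and 83.5, 86.2 and 86.0 for Nr4a3; both measures follow pileup more than the ratio to local background, by construction. A threshold of −log10 q of at least 5 leaves fewer weak peaks. Among those peaks the fold percentile was 38.4, 38.0 and 75.7 for Nr4a1 in RC3, EXT1 and EXT2. It was 54.2, 56.8 and 48.5 for Nr4a3. A window of 2 kb either side took in the upstream peak of Nr4a3 and gave 82.7 in EXT2. With that stricter threshold the Nr4a3 window held 5 peaks in RC3 and 4 in EXT1, and 4 of its regions were in all 3 lists. With lists of equal length it held 5 in RC3, and the Nr4a1 window 13 in EXT2. Flanks of 25 kb gave 9 and 11 Nr4a1 peaks in EXT1 and EXT2 and 4 Nr4a3 peaks in EXT1. Shorter flanks make the window smaller, so these counts fall by construction, and density was not recomputed. Leaving out each list in turn is not counted above: no region was in exactly 2 lists, so that the other lists had to share the same 12 and 7 regions, which says nothing about stability. No paired analysis was possible because the complete lists share no replicate number between groups and the results come from no test.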

Other observations

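Peak positions overlapped more in both windows than over the genome. The Jaccard index, the bases in both peak sets over the bases in either, was 0.527 at Nr4a1 and 0.604 at Nr4a3 between RC3 and EXT1 (0.405 over the genome), 0.467 and 0.443 between RC3 and EXT2 (0.390), and 0.472 and 0.489 between the EXT libraries (0.313). In neither window were the EXT libraries the most similar pair. At the Nr4a3 window 4, 3 and 4 peaks in RC3, EXT1 and EXT2 had an implied background within 1% of the genome-wide level, out of 9, 7 and 9, and at Nr4a1 0 of 15, 14 and 21 peaks did. Over all peaks of the lists the shares were 32.6%, 29.8% and 30.9%.

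The Nr4a2 promoter carried as many TGACG matches, 4, as those of Nr4a1 and Nr4a3, while a start peak was called for the latter genes only. The Nr4a3 region 41.7 kb upstream and the Nr4a1 region 44.4 kb downstream were the shared regions singled out, after their values were seen, for a wide spread between libraries, with EXT2 at the 79.3rd and 73.3rd percentile and EXT1 at the 41.6th and 4.33rd.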
